A study of Rattus norvegicus with 28 samples.

Results

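Small non-coding RNAs of the nucleus and nucleolus were followed in 28 RNA-seq libraries of rat lung. They were taken as the genes whose name begins with SNOR, snoU, SCARNA, 7SK or RNase, or is U and a number, and whose deposited values averaged 10 or more across the libraries. Of 204 such rows 72 reached that mean, out of 17002 genes in the table, and 132 did not. The mean spans every group, so a gene can reach the limit through a group where it is high. The 72 genes carry 64 names, so repeated names are told apart by Ensembl identifier. They are 30 SNORD genes, 21 SNORA, 7 snoU, 6 SCARNA, 4 7SK, 2 RNase and 2 U6 genes, and none of the rows named U1, U2, U3 or U4 is among them. Just inside the limit lay a 7SK gene (ENSRNOG00000043972) at a mean of 10.4 and a U6 gene (ENSRNOG00000035922) at 10.2. Just outside it lay a second SNORD35 row (ENSRNOG00000035072) at 9.93 and SNORD42 at 9.61.

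All animals were Sprague Dawley rats, and the tissue was the right upper lung lobe. Acutely injured lungs were ventilated with variable tidal volumes (acute_noisy, n = 4) or constant ones (acute_VCV, n = 3). Lungs with no previous injury were ventilated in the same ways (healthy_noisy, n = 3, and healthy_VCV, n = 4), as were chronically injured lungs (chronic_noisy, n = 3, and chronic_VCV, n = 3). Unventilated lungs came from animals 14 days after chronic injury was induced (control_chronic, n = 5) or from animals without injury (control_blank, n = 3). There was no unventilated group with acute injury, so acute injury without ventilation was not measured. How the injuries were made is not given in the sources used here. The libraries were made from RNA bound to oligo(dT) beads, a step that keeps polyadenylated RNA, whereas the mature forms of most of these small RNAs carry no poly(A) tail.

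SNORD RNAs, the box C/D family, guide the methylation of ribose in ribosomal and other RNAs, and SNORA RNAs, the box H/ACA family, guide the change of uridine to pseudouridine. In mammals most of both families lie in introns of other genes and are released when the intron is spliced and trimmed. SCARNA genes and several snoU genes (U85, U89 and U90 among them) encode relatives held in Cajal bodies, where they act on spliceosomal RNAs. The RNA of RNase P trims the leaders of precursor tRNAs, RNase MRP RNA takes part in cutting precursor ribosomal RNA, and 7SK RNA holds the elongation kinase P-TEFb inactive. These 3 are made by RNA polymerase III from genes of their own.

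Levels are the deposited values, reads after division by the size factor of their library, and no values are set against gene length, so levels are not compared between genes. Whole reads recovered per library numbered 6024093 to 31923838, and the counting error is largest in control_chronic (6024093 to 17162741 reads). Together the 72 genes held 0.0061% to 0.0228% of the deposited signal in every library outside control_chronic, where they held 0.0149% to 0.1031%. The library numbers in the titles fall into 4 series (12, 14, 15 and 18), whose meaning the labels do not state. All acute_VCV and control_blank libraries are of series 12, and all control_chronic libraries are of series 18. Of 14 lung cell markers, Sftpc (surfactant protein C) was at 129597 or more in every library, while others varied widely, such as S100a8 (92.1 to 28725), Cdh5 (545 to 16103) and the heart muscle gene Myh6 (0.9 to 3494). In bulk tissue, fewer cells of a type and less RNA per cell cannot be told apart, and a read over a small RNA may come from the mature RNA or from a longer transcript across it.

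A pair of host genes introduces the acute injury result, since each holds a pair of these small RNAs that both passed the test there. RefSeq places Snord78 and Snord81 inside Gas5, and Snora62 and Snora73 under the entry names Snora62l1 and Snora73bl1 inside Rpsa, which encodes a ribosomal protein. The match is by name and by position alone, because the RefSeq table gives no strand and matches no Ensembl identifier, and a counted row of a family with several copies may lie outside the host named here. The promoters run from 250 bases before to 50 bases after the annotated start (RefSeq, GRCr8, plus strand, at chr13:75836713-75837012 for Gas5 and chr8:128728629-128728928 for Rpsa). Genes of this kind often start in a run of pyrimidines, and capitals mark CTTTC where it lies within 20 bases of the start on the gene's strand.
Gas5: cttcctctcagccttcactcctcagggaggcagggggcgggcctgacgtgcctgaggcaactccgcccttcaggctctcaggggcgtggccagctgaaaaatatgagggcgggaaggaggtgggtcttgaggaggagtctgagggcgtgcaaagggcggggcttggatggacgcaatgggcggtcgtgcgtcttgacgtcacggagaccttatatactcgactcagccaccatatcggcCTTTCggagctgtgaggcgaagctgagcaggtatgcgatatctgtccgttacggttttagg
Rpsa: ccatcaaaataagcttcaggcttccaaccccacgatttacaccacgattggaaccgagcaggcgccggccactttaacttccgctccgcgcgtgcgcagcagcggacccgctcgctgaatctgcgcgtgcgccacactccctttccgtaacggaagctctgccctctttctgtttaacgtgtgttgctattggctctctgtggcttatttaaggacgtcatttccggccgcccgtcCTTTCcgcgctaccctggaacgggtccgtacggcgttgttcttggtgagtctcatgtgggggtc
CTTTC begins 11 bases before the start of Gas5 and 14 bases before that of Rpsa. The promoter of Rpl7a, the host of Snord24, held 1 CTTTC on the gene's strand and 0 within 20 bases of the start. Such a match lay within 20 bases of the start in 4.97% of 33469 RefSeq rat promoters, while 57.5% held CTTTC somewhere on either strand. The match describes the letters and was chosen after the values were seen.

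Acute injury with constant ventilation was the condition in which box C/D and box H/ACA RNAs stood highest. Against control_blank, 29 of 72 small RNAs (40.3%) were higher in acute_VCV and 0 were lower, where 37.3% of the 14908 genes tested passed, 20.6% higher and 16.7% lower (limma on log2(value + 1), Benjamini-Hochberg adjustment over all genes, threshold 0.05). The rise held 18 of 30 SNORD and 8 of 21 SNORA genes, 2 of 7 snoU genes and 1 of 4 7SK genes, and no SCARNA, RNase or U6 gene. Some of the 72 average under 10 without acute_VCV, so they joined through that group. They are SNORD12, SNORD69, SNORD77, SNORD100, SNORND104, SNORD33 (ENSRNOG00000034855), SNORD36 (ENSRNOG00000034505), SNORA1, SNORA63, SNORA64, snoU83B and 7SK (ENSRNOG00000043972). These genes count in every number given for acute_VCV, and no count was made without them. Those numbers are therefore not independent of how the 72 were chosen. By fit, 29 of 30 SNORD genes and 19 of 21 SNORA genes had a positive difference, with medians of 1.47 and 1.20 on the log2 scale, beside 0.07 over all genes. In 44 of 72 genes each acute_VCV library lay above each control_blank library and in 5 each lay below, beside 23.1% and 20.7% of all genes. Both groups belong to series 12, so the number series does not separate them.

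**Figure D1:**
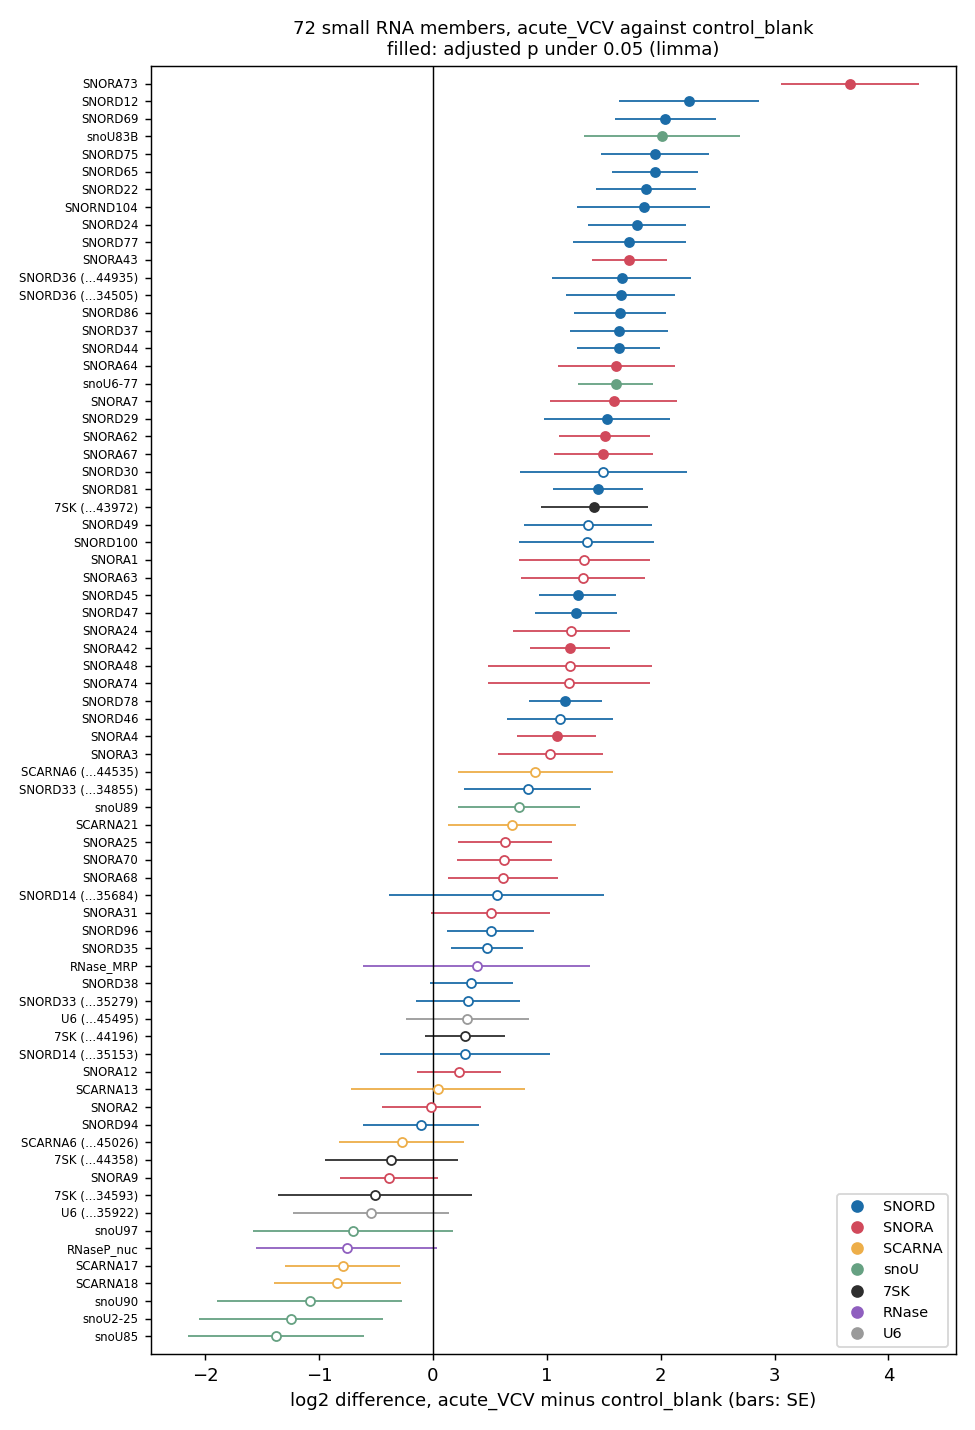
Log2 difference of each of the 72 small RNAs, acute_VCV minus control_blank, with its standard error, sorted by size and coloured by class. Filled points passed an adjusted p of 0.05 (limma), and the 29 filled points all lie to the right of 0.

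The summed SNORD values were 1459, 1418 and 1822 in the acute_VCV libraries, against 602, 771 and 597 in the control_blank libraries. Summed SNORA values were 964, 742 and 861 in acute_VCV and 328, 511 and 381 in control_blank. Neither pair of groups overlapped. The deepest control_blank library (control_blank_021, with 30960809 reads) had 597 for SNORD and 381 for SNORA, while the acute_VCV libraries of similar depth (28800053 to 31923838 reads) all stood higher. The other control_blank libraries held 22277745 and 22902459 reads. Over the 28 libraries the SNORD sum correlated with depth, both as log2, at 0.49. Within series 12, 14 and 15 it was 0.52, 0.72 and -0.40. For the SNORA sum these values were 0.17, then 0.59, 0.60 and -0.77. The part of depth in this result was not tested. The SCARNA sum ran the other way between these groups, with 152, 166 and 209 in acute_VCV and 263, 271 and 260 in control_blank, although no single SCARNA gene passed the test. With the ventilation mode held fixed, SNORD sums were 1418 to 1822 in acute_VCV and 311 to 408 in healthy_VCV, whose libraries are of other series. Within series 15 they were 787 and 812 in acute_noisy and 444 to 508 in healthy_noisy. Neither pair overlapped, and these pairs of groups were not tested.

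Some markers of cell types also differed between acute_VCV and control_blank. Of the 14 listed, 4 were higher and 2 lower, beside 20.6% higher and 16.7% lower among all genes. The neutrophil genes S100a8 and S100a9 were higher by 4.62 and 4.41 on the log2 scale (adjusted p = 3.76e-06 and 2.33e-06 by limma), the endothelial gene Cdh5 by 1.76 (adjusted p = 0.013) and the macrophage gene Cd68 by 0.69 (adjusted p = 0.0283). Scgb1a1 of club cells fell by 1.60 and Aqp5 of alveolar type I cells by 1.38 (adjusted p = 0.00258 and 0.00499 by limma). Pecam1, the other endothelial gene listed, and Ager, the other alveolar type I gene, did not pass. The part of these markers in the small RNA result was not tested.

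SNORA73, a box H/ACA RNA known as U17 known for its part in cutting precursor ribosomal RNA, had the largest difference. Its values were 96.7, 52.3 and 90.9 in acute_VCV, against 3.20, 10.5 and 3.87 in control_blank. The lowest acute_VCV library thus stood well above the highest control_blank library. The log2 difference was 3.66 ± 0.61 (SE, adjusted p = 8.03e-05 by limma), and it stayed between 2.49 and 4.11 in 11 alternatives, all past the threshold. In acute_noisy its values were 52.2, 47.2, 23.4 and 40.3, also all above control_blank, with a log2 difference of 2.70 ± 0.57 (adjusted p = 0.000333 by limma). SNORA62, which RefSeq places in the same host, had 111, 75.2 and 100.01 in acute_VCV and 24.8, 43.0 and 32.1 in control_blank. Its groups did not overlap either, at a log2 difference of 1.51 ± 0.40 (adjusted p = 0.00496 by limma).

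SNORD12 and SNORD69, box C/D guides, followed SNORA73 in size. SNORD12 had 46.7, 39.5 and 47.7 in acute_VCV, against 10.4, 5.67 and 10.5 in control_blank, a log2 difference of 2.25 ± 0.62 (adjusted p = 0.00619 by limma). SNORD69 had 22.8, 19.8 and 22.2 in acute_VCV, against 3.20, 8.10 and 3.32 in control_blank, a log2 difference of 2.04 ± 0.44 (adjusted p = 0.00102 by limma). For both, the acute_VCV libraries were close together and apart from control_blank. SNORD24, whose rat entry lies in the ribosomal protein gene Rpl7a, had the highest mean of the SNORD genes. It reached 125, 155 and 248 in acute_VCV, against 47.1, 58.4 and 40.4 in control_blank, a log2 difference of 1.79 ± 0.43 (adjusted p = 0.00239 by limma).

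The box C/D RNAs that lie in GAS5 in humans were among those that rose. Of these, SNORD44, SNORD47, SNORD75, SNORD77, SNORD78 and SNORD81 are among the 72 genes, and all 6 were higher in acute_VCV than in control_blank, with log2 differences of 1.16 to 1.95. This grouping was made after the values were seen. SNORD44 had 132.8, 115.4 and 169.95 in acute_VCV, against 47.1, 48.6 and 36.5 in control_blank. SNORD81 had 38.3, 35.7 and 37.3 in acute_VCV and 9.59, 20.3 and 11.1 in control_blank. In each of the 6 the acute_VCV libraries all lay above control_blank, but SNORD77 joined the 72 through acute_VCV. SNORD22, or U22, which serves precursor ribosomal RNA processing, rose by 1.87 ± 0.44 (log2, adjusted p = 0.00187 by limma), and SNORD29 by 1.53 ± 0.55 (adjusted p = 0.0325 by limma). SNORD30 did not pass, at 1.496 ± 0.73 (adjusted p = 0.11 by limma). In humans these last 3 lie together in SNHG1.

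Most of the small RNAs that could be placed in a host had a higher log2 difference than the host did. Of 57 SNORD, SNORA and SCARNA genes, 38 matched a RefSeq entry by name and 33 were placed in a single host, and for 21 of them the host, 1 of 17 genes, was found in the deposited table. In acute_VCV against control_blank the 21 small RNAs had a median log2 difference of 1.19 and their 17 hosts 0.08, and 18 of the 21 exceeded their host. Signed differences were compared, so a host that fell by more than its small RNA rose also counts, as Trpv2 (-1.42) does for SNORD49 (1.36). Of the 17 hosts 2 were higher and 4 lower, where 20.6% of all genes were higher and 16.7% lower. In a second list, of known hosts of such RNAs whether or not these hold one of the 72, 7 of 22 were higher and 0 lower, with a median of 0.13, and 7 genes stand in both lists. Rpsa averaged 24954 ± 4105 in acute_VCV and 27057 ± 9826 in control_blank (SD, n = 3 each), a log2 difference of -0.07 beside 3.66 for SNORA73, if the counted SNORA73 gene is the copy in Rpsa. Trpv2, a cation channel gene, was lower in acute_VCV, at 819 ± 84 against 2318 ± 1001 in control_blank. SNORD65, placed inside it by position with no strand known, was higher by 1.95. Whether SNORD65 and SNORD49, which is placed there too, come from Trpv2 transcripts was not tested, and both count among the 18. Nop56, which encodes a core box C/D protein, moved with SNORD86 inside it, at 1.64 for both. Differences between a small RNA and its host were not tested, and SNORD69, SNORD100 and SNORA64 among the 21 joined the 72 through acute_VCV.

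**Figure D2:**
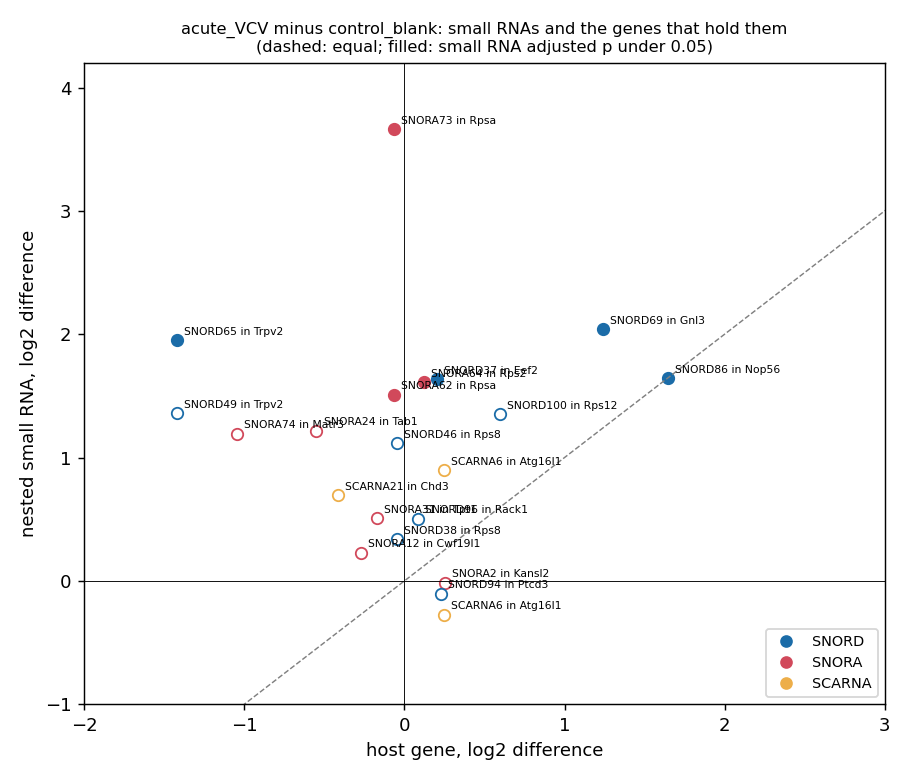
Log2 difference acute_VCV minus control_blank of 21 small RNAs (vertical axis) against that of the gene RefSeq places them in (horizontal axis), with the dashed line where both are equal. Filled points passed the test, and 18 of 21 points lie above the line.

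Messages for the proteins that join with box C/D and box H/ACA RNAs were also mostly higher in acute_VCV. Of 10 genes listed for box C/D particles, 7 were higher in acute_VCV than in control_blank and 1 lower. Fbl, the methyltransferase fibrillarin, averaged 3751 ± 323 in acute_VCV and 1396 ± 209 in control_blank (SD, n = 3 each), a log2 difference of 1.43, and the core protein Nop58 differed by 1.30. Of 9 genes found for box H/ACA particles, 6 were higher and 0 lower, among them the core genes Gar1 (1.60) and Nhp2 (1.37) and Nolc1 (1.56), whose product is a chaperone of these particles. For RNase P and MRP, 2 of 10 protein genes were higher, Rpp38 (1.55) and Pop1 (1.30). Of 7 genes for the 7SK particle and P-TEFb, Ccnt1 alone passed, at 0.97. Beside the 20.6% of all genes that were higher in this comparison, the shares in the RNase and 7SK lists were not larger.

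With variable ventilation after acute injury, the same families stood higher than control_blank in fewer genes. In acute_noisy 15 of 72 small RNAs were higher and 4 lower, where 59.8% of all genes passed, 31.3% higher and 28.4% lower. The share of small RNAs that were higher, 20.8%, was therefore below that of all genes. The 15 held 9 SNORD genes, with SNORD69 at 1.43 ± 0.42 (log2, SE, adjusted p = 0.00531 by limma), and 3 SNORA genes, led by SNORA73. Lower were RNaseP_nuc (-1.86 ± 0.75), SNORA9 (-1.04 ± 0.40), SNORD35 (-0.82 ± 0.30) and SNORD38 (-0.81 ± 0.34). The RNaseP_nuc and SNORA9 calls were each lost in 6 of 14 alternatives and the SNORD35 call in 3, and SNORA9 was at -0.35 (adjusted p = 0.497 by limma) with acute_noisy of series 15 only. With the acute_noisy libraries of series 14 alone 12 small RNAs passed, and with those of series 15 alone 5 did. The 19 calls dropped to 9 without control_blank_016, 7 without control_blank_021, 10 without acute_noisy_047 and 11 without acute_noisy_050.

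Set directly against acute_VCV, acute_noisy was lower in 7 of 72 small RNAs (9.72%) and higher in 0, beside 12.3% and 11.9% of all genes (24.2% in either direction). By fit, 29 of 30 SNORD and 21 of 21 SNORA genes had a negative difference, with medians of -0.78 and -0.85 on the log2 scale, beside -0.05 over all genes. In 30 of 72 genes every acute_noisy library lay below every acute_VCV library and in 0 above, beside 2236 and 1712 of the 14908 genes tested. Genes that joined the 72 through acute_VCV count in all these numbers. The gene named next, SNORD36 (ENSRNOG00000034505), is among them, as it averages under 10 without acute_VCV. SNORD36 (ENSRNOG00000034505) had 10.76, 9.28, 7.22 and 11 in acute_noisy, against 29.4, 31.2 and 25.5 in acute_VCV, a log2 difference of -1.504 ± 0.45 (adjusted p = 0.0197 by limma), a call lost in 4 of 14 alternatives. SNORD35 had 24.8, 31.2, 24.4 and 26.9 in acute_noisy, against 73.3, 52.3 and 77.1 in acute_VCV, a log2 difference of -1.29 ± 0.30 (adjusted p = 0.00537 by limma). Neither gene's groups overlapped. SNORD65, SNORD81, SNORD38, SNORA70 and SNORA43 made up the 7, at -0.94 to -1.19. Fitted on these groups alone, with 4 and 3 libraries, 0 of the 72 passed, although 31 had an unadjusted p under 0.05, and 1 passed without acute_VCV_040, 3 without acute_VCV_045, 2 without acute_VCV_049, and 4 without acute_noisy_046 or acute_noisy_050. The acute_VCV libraries are of series 12 and the acute_noisy ones of series 14 and 15, so the effects of series and of ventilation cannot be told apart here.

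**Figure D3:**
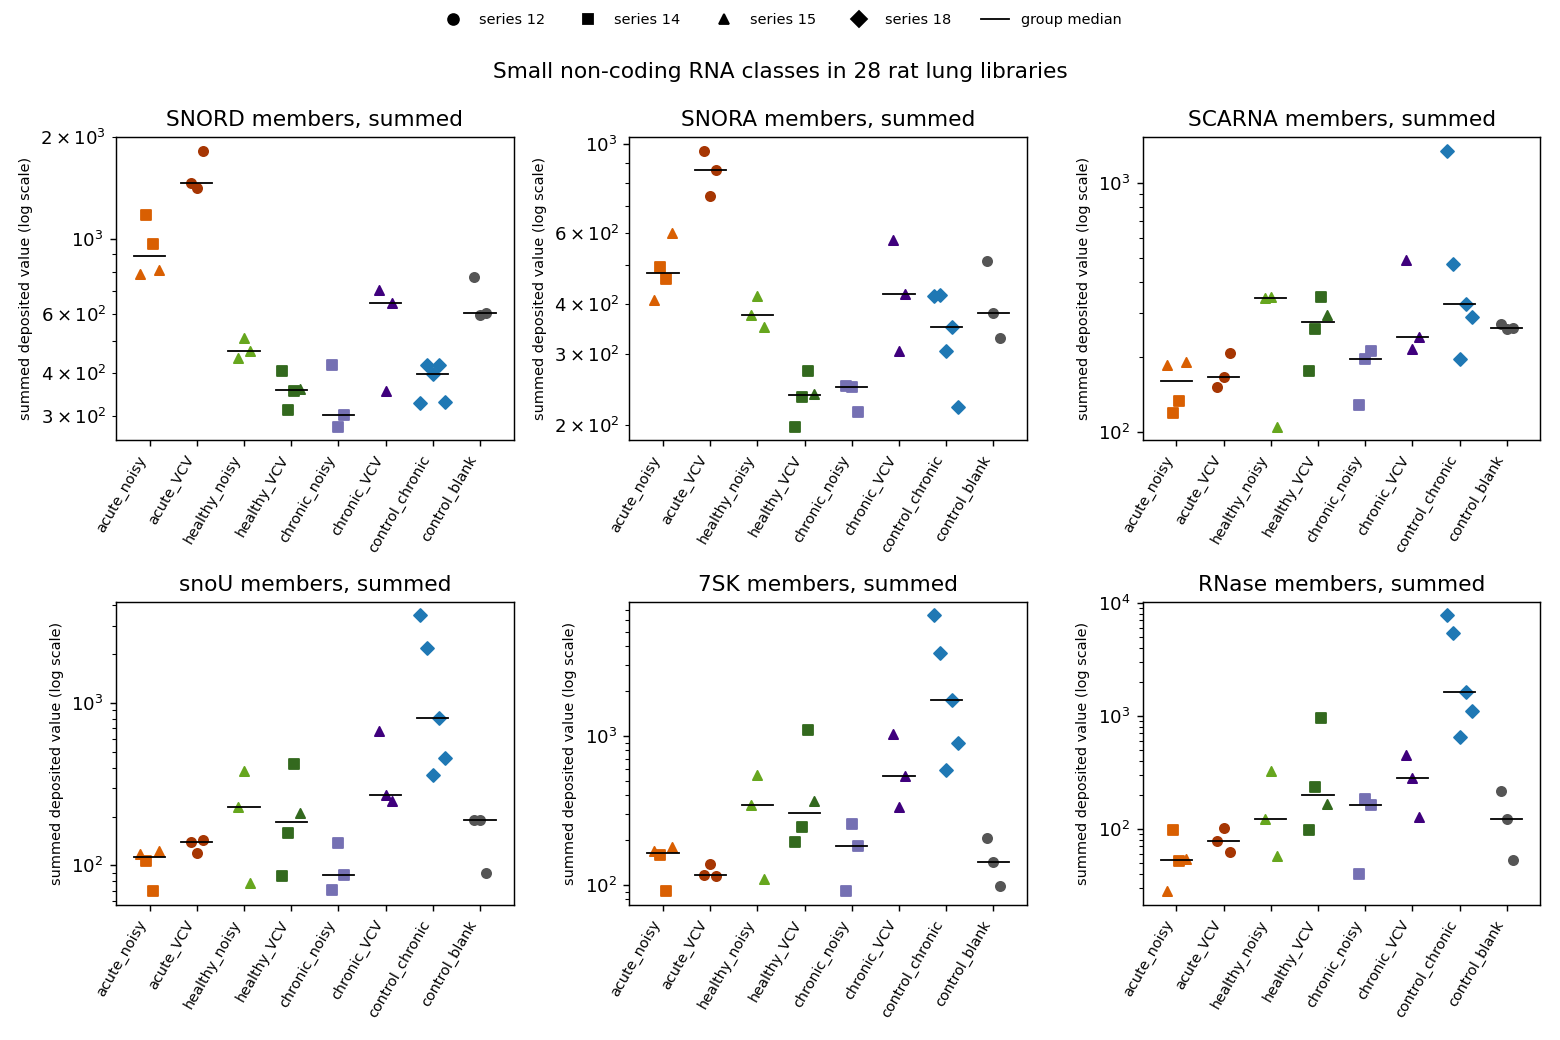
Summed deposited values of 6 classes in each library by group, on log axes, with marker shape for the number series and a bar at the group median. SNORD and SNORA sums are highest in acute_VCV (1418 to 1822 and 742 to 964), and the group medians of the 7SK, RNase and snoU sums are highest in control_chronic.

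A second set of small RNAs stood apart in the chronically injured lungs that were not ventilated. Against control_blank, 10 of 72 genes (13.9%) were higher in control_chronic and 7 lower, where 14.9% of all genes passed, 9.3% higher and 5.55% lower. The 10 were both RNase genes, the most abundant 7SK gene (ENSRNOG00000034593), 5 of 7 snoU genes, SCARNA13 and SNORA74. Without control_chronic, SNORA74 averages under 10, so it joined the 72 through that group. The 7 were 6 SNORD genes and SNORA9. The count of 17 dropped to 7 without control_blank_016, and to 11 without control_blank_021 or without control_chronic_113. Of the 72 genes, 11 had their highest group median in control_chronic, while 48 had it in acute_VCV, among them 29 of 30 SNORD genes. No such count over all genes stands beside these, so their distance from the whole table was not tested. The 48 include genes that joined the 72 through acute_VCV, such as SNORD12, and the 11 include SNORA74.

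RNase_MRP had 4108, 2379, 164, 683 and 434 in control_chronic, against 7.99, 30.8 and 22.1 in control_blank. All control_chronic libraries were higher, and they were widely spread among themselves. The log2 difference was 5.52 ± 0.89 (SE, adjusted p = 0.00169 by limma). RNaseP_nuc had 3613, 2994, 481, 935 and 662 in control_chronic, against 44.7, 186 and 99.02 in control_blank, a log2 difference of 3.74 ± 0.71 (adjusted p = 0.00349 by limma). The 7SK gene had 6345, 3569, 535, 1708 and 860 in control_chronic, against 55.1, 166 and 105 in control_blank, a log2 difference of 4.16 ± 0.76 (adjusted p = 0.00295 by limma). For all 3 the groups did not overlap, and the same pair of libraries, control_chronic_113 and control_chronic_114, was highest.

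The snoU genes followed the same libraries. snoU85, a guide that carries both box types, had 337, 260, 33.1, 62.2 and 41.8 in control_chronic, against 6.39, 14.6 and 7.74 in control_blank, a log2 difference of 3.26 ± 0.69 (adjusted p = 0.00646 by limma). snoU97 differed by 3.81 ± 0.78, snoU2-25 by 2.84 ± 0.72, snoU90 by 2.82 ± 0.73 and snoU89 by 1.93 ± 0.48 on the log2 scale. The other snoU genes, snoU6-77 and snoU83B, did not pass here and were the 2 that rose in acute_VCV. Across the 28 libraries the log2 values of snoU85, snoU90, snoU97 and snoU2-25 correlated with those of the 7SK gene at r = 0.92 to 0.97 and those of snoU89 at 0.74, a description of points that share groups, series and depth. The other 3 7SK genes did not pass in control_chronic.

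The libraries with the highest 7SK, RNase and snoU values were also the shallowest. The libraries control_chronic_113 and control_chronic_114 held 6024093 and 8935729 reads, the lowest of all. The correlation of the summed 7SK value with depth, both as log2, was -0.82 over the 28 libraries, and it was -0.17, -0.27 and -0.50 within series 12, 14 and 15. Series 18 holds 5 libraries, too few for a correlation. Its summed 7SK values were 6431, 3624, 1750, 586 and 893 at 6024093, 8935729, 11177089, 13255861 and 17162741 reads, so the shallower libraries of control_chronic had the higher sums and the order turned only between the deepest pair. Summed values of 2 rows named 5_8S_rRNA, a ribosomal RNA with no poly(A) tail, had a median of 345 in control_chronic and 39.3 in control_blank. Summed values of 16 histone genes, whose messages also lack the tail, ran from 2781 to 3460 in control_chronic and from 2412 to 2485 in control_blank. The part of depth and of unselected RNA in the result was not tested, and series 18 and control_chronic cannot be told apart. Without control_chronic_113 and control_chronic_114, 9 of the 72 genes passed, 5 higher and 4 lower. RNase_MRP, RNaseP_nuc and the 7SK gene passed in each of 14 alternatives, including that one, while snoU2-25 (1.94, adjusted p = 0.103 by limma) and snoU90 (1.86, adjusted p = 0.11) did not pass without both libraries.

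**Figure D4:**
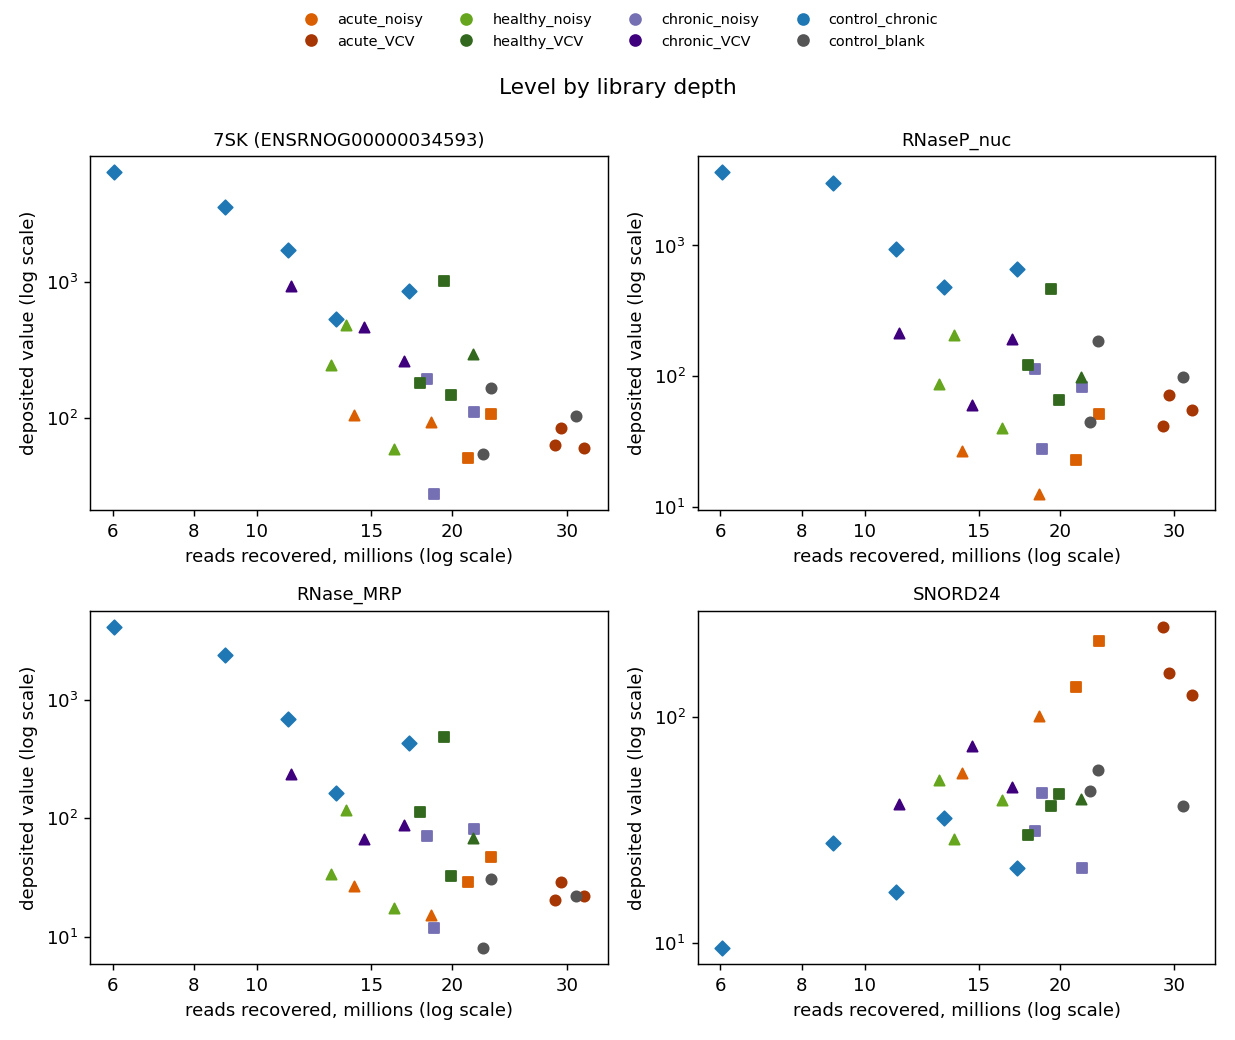
Deposited values of the abundant 7SK gene, RNaseP_nuc, RNase_MRP and SNORD24 in each library against reads recovered, both on log axes, coloured by group. The libraries control_chronic_113 and control_chronic_114 (6024093 and 8935729 reads) are at the upper left for the first 3 genes, and the highest SNORD24 values are in acute_VCV and acute_noisy libraries.

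Among the box C/D genes that were lower in control_chronic, SNORD38 and SNORD35 rested on few reads there. They had 4 to 10 and 6 to 16 reads per library in control_chronic, against 34 to 69 and 61 to 78 in control_blank. SNORD38 had 12.7, 9.91, 10.2, 10.1 and 10.7 in control_chronic, against 27.2, 48.6 and 38.2 in control_blank, a log2 difference of -1.70 ± 0.33 (adjusted p = 0.00349 by limma). SNORD35 had 19.1, 15.9, 7.64, 23.6 and 17.1 in control_chronic, against 48.7, 51.9 and 43.1 in control_blank, a log2 difference of -1.55 ± 0.28 (adjusted p = 0.00295 by limma). In both genes all control_chronic libraries were lower. SNORD14 (ENSRNOG00000035684), of the U14 family that serves precursor ribosomal RNA processing, differed by -2.73 ± 0.84 (adjusted p = 0.0331 by limma), with control_blank values spread over 11.2, 78.6 and 13.8. That call was lost in 6 of 14 alternatives, among them without control_blank_016, and the difference ran from -3.72 to -1.47.

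Messages for the proteins of RNase P and MRP did not pass as higher in control_chronic. Of 10 listed genes 0 were higher and 1 was lower, Rpp21, at -0.63 ± 0.14 (log2, SE, adjusted p = 0.0079 by limma). Among 7 genes for the 7SK particle and P-TEFb, 0 were higher and Larp7, whose product binds the end of 7SK, was lower at -0.77 ± 0.23 (adjusted p = 0.029 by limma). The lists for box C/D and box H/ACA proteins held 0 genes past the threshold in either direction. Among all genes 9.3% were higher and 5.55% lower in this comparison. Outside the 72 genes, the 5 genes most alike to RNase_MRP and to the 7SK gene over the 28 libraries carry no name in the table. The closest were ENSRNOG00000043866 for RNase_MRP (r = 0.93) and ENSRNOG00000044316 for 7SK (r = 0.97).

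In chronically injured lungs that were then ventilated with variable volumes, the same RNAs were lower than without ventilation. Against control_chronic, chronic_noisy had 14 of 72 genes (19.4%) lower and 1 higher, beside 18.1% and 19.1% of all genes (37.2% in either direction), so the share that was lower was near that of all genes. RNase_MRP had 11.7, 70.0 and 80.3 in chronic_noisy, below every control_chronic library, at a log2 difference of -4.37 ± 0.89 (adjusted p = 0.000979 by limma). RNaseP_nuc had 27.99, 113.1 and 83.5 in chronic_noisy, at -4.27 ± 0.71 (adjusted p = 0.000228 by limma), and the 7SK gene 27.99, 194 and 111, at -4.38 ± 0.76 (adjusted p = 0.000301 by limma). The 5 snoU genes that were higher in control_chronic than in control_blank were all lower here, but both comparisons use the control_chronic libraries. SNORA4 was the 1 gene that was higher, at 0.95 ± 0.31 (adjusted p = 0.0202 by limma), a call lost in 4 of 14 alternatives.

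With constant ventilation, chronic_VCV had 5 of 72 genes higher than control_chronic and 2 lower, beside 6.89% and 7.9% of all genes (14.8% in either direction). RNaseP_nuc had 213, 192 and 59.9 in chronic_VCV, below all control_chronic libraries, at a log2 difference of -3.22 ± 0.71 (adjusted p = 0.00444 by limma). RNase_MRP had 237, 88.2 and 66.6, at -2.94 ± 0.89 (adjusted p = 0.0288 by limma), and here the groups overlapped. Without control_chronic_113 and control_chronic_114 its difference was -1.70 (adjusted p = 0.21 by limma), and the call was lost in 6 of 14 alternatives. The 7SK gene had 941, 263 and 467 in chronic_VCV, overlapping control_chronic and above every control_blank library, and did not pass, at -1.87 ± 0.76 (adjusted p = 0.097 by limma). None of the 5 snoU genes passed either, at -2.25 to -0.96 (adjusted p = 0.0547 to 0.392 by limma), and all of them overlapped. SNORD86, SNORD77, SNORA67, SNORD24 and snoU6-77 were higher by 1.30 to 1.51 on the log2 scale. The SNORD77 call was lost in 9 of 14 alternatives, the SNORA67 call in 3 and the SNORD86 call in 2. In control_chronic SNORD77 rested on 1 to 4 reads per library, SNORD86 on 2 to 5 and snoU6-77 on 3 to 5. SNORA67 had 2 to 13 reads there and SNORD24 had 3 to 28. Fitted on these groups alone, 1 of the 72 passed, and 4 passed without chronic_VCV_073. Control_chronic (series 18) shares no series with either ventilated group, and series cannot be told apart from ventilation.

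Between ventilation modes in chronic injury, chronic_noisy was lower than chronic_VCV in 2 of 72 genes and higher in 0, beside 1.86% and 0.563% of all genes (2.43% in either direction). SNORD81 had 4.51, 2.69 and 2.39 in chronic_noisy, against 15.3, 9.13 and 16.6 in chronic_VCV, a log2 difference of -1.80 ± 0.40 (adjusted p = 0.023 by limma). SNORD86 had 2.71, 8.08 and 5.57 in chronic_noisy, against 32.1, 15.2 and 13.3 in chronic_VCV, a log2 difference of -1.71 ± 0.40 (adjusted p = 0.0292 by limma). Both pairs of groups stood apart, but in chronic_noisy SNORD81 rested on 5, 3 and 3 reads and SNORD86 on 3, 9 and 7. The SNORD81 call was lost in 7 of 12 alternatives, among them a pseudocount of 10, and the SNORD86 call in 6. All chronic_noisy libraries are of series 14 and all chronic_VCV libraries of series 15, and with the series as a covariate 0 of the 72 passed, with 12 at an unadjusted p under 0.05. Without chronic_noisy_079, chronic_noisy_084 or chronic_VCV_067 the count was 0, without chronic_noisy_075 or chronic_VCV_073 it was 1, and without chronic_VCV_069 it was 5.

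In ventilated lungs without injury, the small RNAs that passed were mostly lower than in control_blank. For healthy_VCV this held for 13 of 72 genes (18.1%), with 3 higher, beside 28.1% lower and 29.3% higher among all genes (57.4% in either direction). The share was therefore below that of all genes in both directions, while the median log2 difference was -0.69 for SNORD and -0.80 for SNORA genes, beside -0.03 over all genes. The 13 were 7 SNORD genes, 5 SNORA genes and 1 7SK gene. SNORD38 had 12.4, 11.3, 12.3 and 7.11 in healthy_VCV, all below the control_blank values given above, at a log2 difference of -1.72 ± 0.34 (adjusted p = 0.00019 by limma). SNORD35 differed by -1.61 ± 0.30 (adjusted p = 9.35e-05 by limma) and SNORA70 by -1.70 ± 0.39 (adjusted p = 0.000788 by limma). Higher were RNase_MRP (2.49 ± 0.93), SCARNA21 (1.35 ± 0.53) and a low 7SK gene (ENSRNOG00000044196, 1.07 ± 0.33), with the SCARNA21 call lost in 6 of 12 alternatives. RNase_MRP had 32.3, 112, 483 and 67.9 in healthy_VCV, and without the library at 483 (healthy_VCV_060) the difference was 1.76 (adjusted p = 0.11 by limma). Under quantile normalization 30 were lower and 2 higher, and without control_blank_016 a total of 9 passed. These are counts of the 72 alone, with no share of all genes from the same fits beside them.

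In healthy_noisy 5 of 72 genes were lower than in control_blank and 2 higher, beside 14.6% and 17.5% of all genes (32.1% in either direction). All 5 were SNORD genes, led by SNORD38 at 6.53, 10.8 and 10.2 in healthy_noisy (log2 difference -1.92 ± 0.36, adjusted p = 0.000567 by limma). SNORD35 had 18.3, 18.1 and 17.4 in healthy_noisy, below all control_blank libraries, at -1.37 ± 0.32 (adjusted p = 0.00275 by limma). Both uninjured comparisons share control_blank, and without control_blank_016, healthy_noisy_029 or healthy_noisy_061 the healthy_noisy count was 4. Series 12 holds no ventilated uninjured library, which leaves series and ventilation inseparable.

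Between modes in uninjured lungs, healthy_noisy was higher than healthy_VCV in 2 of 72 genes and lower in 0, beside 4.31% and 6.01% of all genes (10.3% in either direction). SNORD81 had 15.7, 20.5 and 13.3 in healthy_noisy, against 6.63, 4.70, 5.26 and 7.90 in healthy_VCV, a log2 difference of 1.30 ± 0.37 (adjusted p = 0.0383 by limma). SNORD65 had 14.4, 13.3 and 14.3 in healthy_noisy, against 5.80, 3.76, 7.01 and 6.32 in healthy_VCV, a log2 difference of 1.18 ± 0.35 (adjusted p = 0.0413 by limma). Neither pair of groups overlapped, yet leaving out any 1 healthy_VCV library, healthy_noisy_029 or healthy_noisy_061 left 0 of the 72 past the threshold. With the series as a covariate 0 passed as well, with 5 at an unadjusted p under 0.05. SNORD81 was thus higher with variable ventilation in uninjured lungs and lower with it in acute and in chronic injury, and the difference between these effects was -2.46 for acute injury (adjusted p = 0.00134 by limma) and -3.10 for chronic injury (adjusted p = 0.00108 by limma). Among ventilated uninjured and chronically injured lungs, the higher SNORD81 values of both modes were in series 15, which holds healthy_noisy and chronic_VCV. Series 14 holds 3 of 4 healthy_VCV libraries and chronic_noisy. The acute_VCV libraries, which belong to neither series, had higher SNORD81 values still, at 38.3, 35.7 and 37.3. Within acute_noisy SNORD81 had 18.04 and 23.2 in series 15 and 10.8 and 14.3 in series 14, and within healthy_VCV 7.90 in series 15 and 4.70 to 6.63 in series 14, so mode and series cannot be told apart for this gene.

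Between library series, series 15 against series 14 within healthy_VCV and acute_noisy gave 0 of 72 genes past the threshold by limma and 0 by edgeR, although the unadjusted p was under 0.05 for 5 genes by limma and for 7 by edgeR. Among all genes 1.15% passed, 0.604% higher and 0.543% lower. This covers 5 libraries of series 14 and 3 of series 15 and does not reach series 12 or 18.

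**Figure D5:**
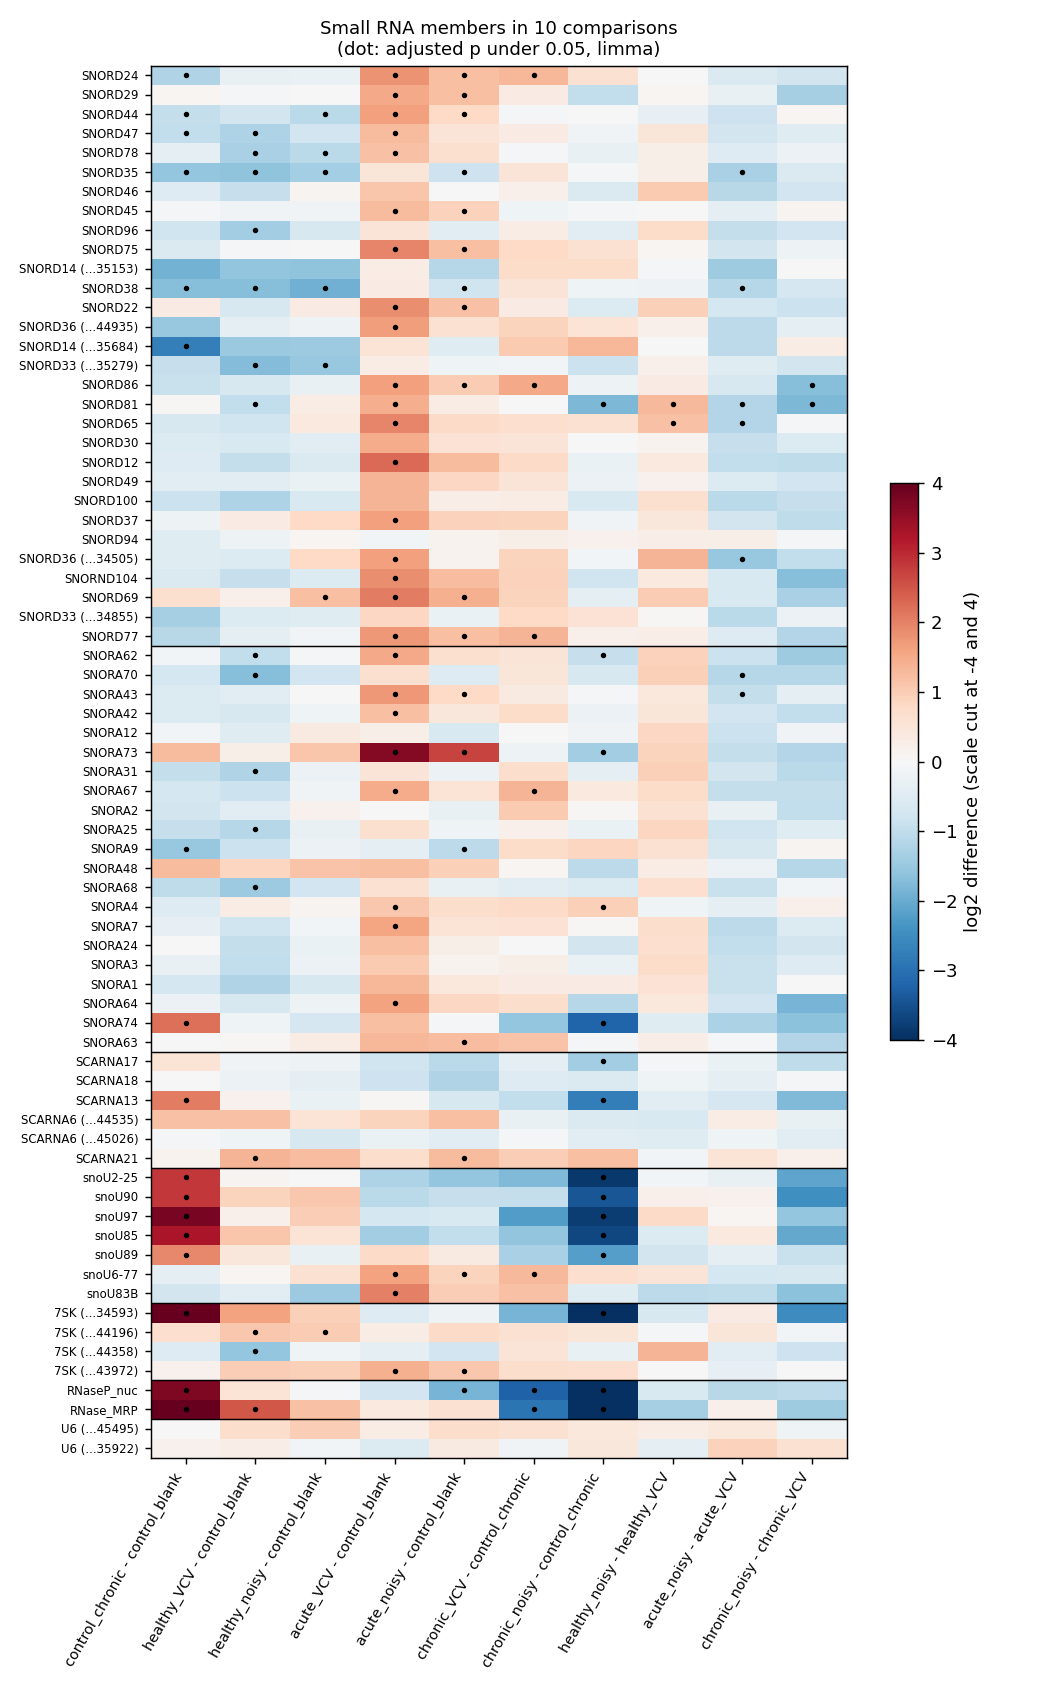
Log2 differences of the 72 small RNAs (rows, by class and then by mean) in 10 comparisons (columns, named by the groups subtracted), with a dot where the adjusted p was under 0.05 (limma). The SNORD and SNORA rows are mostly red for acute_VCV minus control_blank, and the abundant 7SK gene, both RNase genes and 5 snoU genes are red for control_chronic minus control_blank and blue for chronic_noisy minus control_chronic.

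Members of a class varied together to different degrees. Over the 28 libraries the median pairwise correlation of log2 values was 0.59 among SNORD genes, 0.42 among SNORA genes and 0.60 among snoU genes, and -0.22 between SNORD and snoU genes. After the group means were taken out it was 0.12 among SNORD genes and 0.10 among SNORA genes, and 0.55 among snoU genes. These correlations describe points that share libraries and depth. The U6 genes passed in none of the 10 comparisons, with a U6 row (ENSRNOG00000045495) at 7.45 to 28.1 in acute_noisy and 4.43 to 20.8 in control_blank. The 132 matching rows under a mean of 10 were not counted among the 72, and their summed value ran from 962 to 1157 in acute_VCV and from 473 to 629 in control_blank.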

How the data were processed

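Poly(A)-selected, strand-specific RNA-seq was analysed in 28 libraries of rat lung. The table the authors deposited holds a signal for each gene and library: reads after division by the size factor of that library. In each library 100% of the values came out as whole multiples of 1 step within 0.1 read, so whole reads could be recovered. Per the submitters' processing notes CASAVA 1.8.0, BWA, bedtools 2.11 and DESeq 1.8.3 were used with genome build rn4, with no role or order stated, and per the file headers genes are of Ensembl 67. How reads in overlapping genes or repeated copies were counted is not given in the sources used here, so genes with near-identical copies (7SK, U6, SNORD14, SNORD33, SNORD36 and SCARNA6 rows) are uncertain as single genes. No sequence of the small RNAs themselves was used here.

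Genes with a mean value of at least 10 (14908) were fitted as log2(value + 1), with an intensity trend, a robust prior and 8 group means, using limma 3.58.1 (R 4.3.3). Fold changes on this scale understate those of low genes. Tests were two-sided, and p-values of a comparison were adjusted by the Benjamini-Hochberg method over every gene tested, at 0.05. The labels do not state that each library is from a separate animal, so p-values measure the spread between libraries, which may be technical. The procedure was tested on simulated data. No replicates had equal reads. Alternatives were a pseudocount of 10, no filter, quantile normalization, fits on the compared groups, each library left out, and series as a covariate. Fits without control_chronic_113 and control_chronic_114, fits of acute_noisy by series, and the quasi-likelihood test of edgeR 4.0.16 on the recovered reads were chosen after seeing the data. The members and gene lists were chosen with earlier results of these data known. Named were all 7SK and RNase genes, the 6 highest means, up to 3 highest and 3 lowest called genes per comparison, genes at the limit of 10, the genes most alike, and up to 4 called genes per list. Others named, such as the GAS5 group, were chosen after their values were seen. Of the other lists, 0 of 7 nuclear long RNAs were found. In acute_VCV against control_blank 4 of 15 spliceosomal protein genes were higher and 0 lower, 3 of 12 RNA decay genes were higher and 1 lower, and 0 of 7 histone genes were higher and 3 lower. Among all genes 20.6% were higher and 16.7% lower in that comparison.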

Additional observations from a re-analysis of the deposited data

Results flagged for a closer look

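Some single libraries lay far from the others of their group by Dixon's criterion, which flags about 1 in 20 groups by chance. In its group, healthy_VCV_060 had 1019 for the 7SK gene (ENSRNOG00000034593), where the others had 149 to 295, and 466.1 for RNaseP_nuc, where the others had 66.3 to 121. Likewise control_chronic_113 had 753 for SCARNA17, where the others had 122 to 212. Its SNORD38 value of 12.7 also met the criterion, where the others had 9.91 to 10.7, but that is 4 reads and the gap is under the 3.18 that 1 read is worth there. In acute_noisy, library 047 had 29.8 for SNORD14 (ENSRNOG00000035684), where the others had 12.2 to 14.3, and library 053 had 69.7 for SNORA70, where the others had 21.9 to 28.98.

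Effects that differed between injury states were tested as differences of log2 changes. The effect of constant ventilation (against unventilated lungs) in chronic injury minus that in uninjured lungs differed for named genes by these log2 amounts (limma interaction terms, adjusted p 0.00464 to 0.0495): RNase_MRP -5.43, RNaseP_nuc -3.77, 7SK (ENSRNOG00000034593) -3.46, SNORD65 1.47, SNORA9 1.60, SNORD33 (ENSRNOG00000035279) 1.60, 7SK (ENSRNOG00000044358) 2.07, SNORD35 2.14, SNORD86 2.15, SNORA70 2.18, SNORA67 2.21 and SNORD38 2.25. In all, 17 of the 72 genes were higher and 3 lower, where 23.9% of all genes passed in either direction. The effect of variable ventilation in chronic injury minus that in uninjured lungs differed for named genes by these log2 amounts (limma interaction terms, adjusted p 0.0105 to 0.0321): RNase_MRP -5.54, 7SK (ENSRNOG00000034593) -5.33, snoU97 -4.79, snoU90 -4.49, RNaseP_nuc -4.21 and SNORD81 -2.12. In all, 0 were higher and 7 lower, where 2.66% of all genes passed. The effect of variable against constant ventilation in acute injury minus that in uninjured lungs differed for named genes by these log2 amounts (limma interaction terms, adjusted p 0.00122 to 0.0326): SNORD36 (ENSRNOG00000034505) -2.86, SNORD81 -2.46, SNORD65 -2.37, SNORA70 -2.10, SNORA67 -1.67, SNORD69 -1.62 and SNORD35 -1.53. In all, 0 were higher and 18 lower, where 39.0% of all genes passed. The same effect in chronic injury minus that in uninjured lungs differed for named genes by these log2 amounts (limma interaction terms, adjusted p 0.00108 to 0.0415): SNORD81 -3.10, SNORD36 (ENSRNOG00000034505) -2.34, SNORD69 -2.30, 7SK (ENSRNOG00000044358) -2.19, SNORA70 -2.08, SNORD86 -2.04 and SNORA67 -1.67. In all, 0 were higher and 15 lower, where 29.7% of all genes passed. The first and second of these differences share the unventilated libraries, and the other two share the healthy ones. The injury states differ in number series too, so state and series cannot be told apart.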

How the results depend on the processing

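No paired analysis was possible because replicate numbers are not shared between any of the groups. Counts of small RNAs past the threshold are given in the order alternative, then the value in the report. Here and above, no share of all genes is set beside a count from an alternative. From these counts alone, a change in these RNAs thus cannot be told from a change in calls over all genes. Fitted on the compared groups alone, fewer passed: 10 against 17 for control_chronic over control_blank, 2 against 7 for healthy_noisy, 12 against 19 for acute_noisy, 1 against 7 for chronic_VCV over control_chronic, 0 against 7 between modes in acute injury and 0 against 2 in chronic injury. Quantile normalization gave 32 against 16 for healthy_VCV, 4 against 2 between modes in uninjured lungs and 4 against 2 in chronic injury. A pseudocount of 10 gave 18 against 7 between modes in acute injury and 1 against 2 in chronic injury. The number series as a covariate gave 0 against 2 in both uninjured and chronic mode comparisons. By edgeR, 11 against 7 passed for chronic_VCV over control_chronic and 4 against 2 between modes in chronic injury. Without control_chronic_113 and control_chronic_114, 9 against 17 passed over control_blank and 4 against 7 for chronic_VCV. With acute_noisy of series 14 only, 12 against 19 passed, and with series 15 only 5 against 19, and 3 against 7 between modes.

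Leaving out 1 library at a time gave 7 to 17 for control_chronic, 9 to 18 for healthy_VCV, 4 to 7 for healthy_noisy, 22 to 28 for acute_VCV and 7 to 19 for acute_noisy. It gave 4 to 9 for chronic_VCV, 12 to 16 for chronic_noisy, 0 to 2, 1 to 10 and 0 to 5 between modes in uninjured, acute and chronic lungs, and 0 to 2 between series. The report names the libraries that moved a count by over 1.5 times, and the count of 2 between series came without healthy_VCV_062. The acute_VCV count of 29 stayed within 1.5 times in every alternative run, with 35 by edgeR, all higher. Of 51 named differences past the threshold, 21 stayed past it in every alternative run and 30 lost it in at least 1. Over all pairs of a named difference and an alternative, 1529 kept their side of the threshold, 138 lost it and 19 gained it, and no difference that had passed changed sign. The causes of these changes were not tested. Low values, a few reads per library for many of these genes, limit the precision, and control_chronic_113 and control_chronic_114 are the shallowest.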
